A study of Bos taurus with 8 samples.

Results

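Transcripts of the HIF1A hypoxia pathway and of glycolytic enzymes that it controls were followed in the lactating mammary gland of 4 Holstein cows (Bos taurus). The set was named by gene: HIF1A, its hydroxylases EGLN1 and EGLN3, the glycolytic enzymes ALDOA, PGK1, ENO1 and LDHA, the kinase PDK1, and the target genes BNIP3 and NDRG1. Every probe set annotated with exactly 1 of these 10 symbols was taken, which gave 15 probe sets for 9 genes, of 9155 genes with such a probe set on the array. PDK1 had none and was not analysed here. Each cow gave 1 biopsy of full gland, 12 h after milk removal, and 1 of empty gland, 0 h after it, and each of the 8 RNA samples was run on its own array. All cows were lactating, the labels give no age, treatment or genotype, and they do not say which biopsy came first or from which part of the udder. The state of the gland therefore cannot be told apart from other features of the sampling.

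HIF1A encodes the oxygen-regulated subunit of the transcription factor HIF-1. In oxygenated cells the prolyl hydroxylases encoded by EGLN1 and EGLN3 mark this protein for destruction, so its activity is set largely at the level of protein, which an array does not measure. When oxygen is short, HIF-1 accumulates and induces most glycolytic enzymes and EGLN3 itself. It also induces pyruvate dehydrogenase kinase, which inhibits the pyruvate dehydrogenase complex inside the mitochondrion. The lactating gland draws heavily on blood glucose for lactose, and milk that stays in the gland is known to lower mammary blood flow in ruminants. Full and empty gland were compared to see whether the transcripts of this pathway differed between them.

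No gene of the set passed the test between full and empty gland. The mean of the 4 cows differed by -0.11 to 0.14 log2 among the 9 genes, each read by its brightest probe set, with 6 genes lower and 3 higher in full gland. The largest difference, that of EGLN3, was 1.10-fold. Across all 9155 genes 51.4% were lower in full gland, so a count of 6 of 9 is near the background. In limma, a linear model with cow as a block and Benjamini-Hochberg adjustment over 24016 probe sets, each of the 15 probe sets had an adjusted p of 0.993. None of the 15 passed, as was so for 0% of all probe sets, and none had an unadjusted p under 0.05, which 2.5% of all probe sets did. No probe set of the 15 had the same direction in all 4 cows, against 10.2% of all probe sets. In none of the 15 did the 4 full values lie entirely apart from the 4 empty values, against 0.812% of all.

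The precision behind this was moderate. The 95% intervals of the 9 differences, not adjusted for the number of genes, lay between -0.35 and 0.42 log2. For these brightest probe sets that range runs from 1.27-fold lower to 1.33-fold higher in full gland. Other probe sets of the same genes were less precise, with intervals of -0.40 to 0.98 log2 for the LDHA probe set of middle brightness and -0.99 to 0.39 for the dimmest of EGLN1. The median size of a gene's difference, regardless of sign, was 0.07 log2 in the set and 0.08 over all genes.

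**Figure D1:**
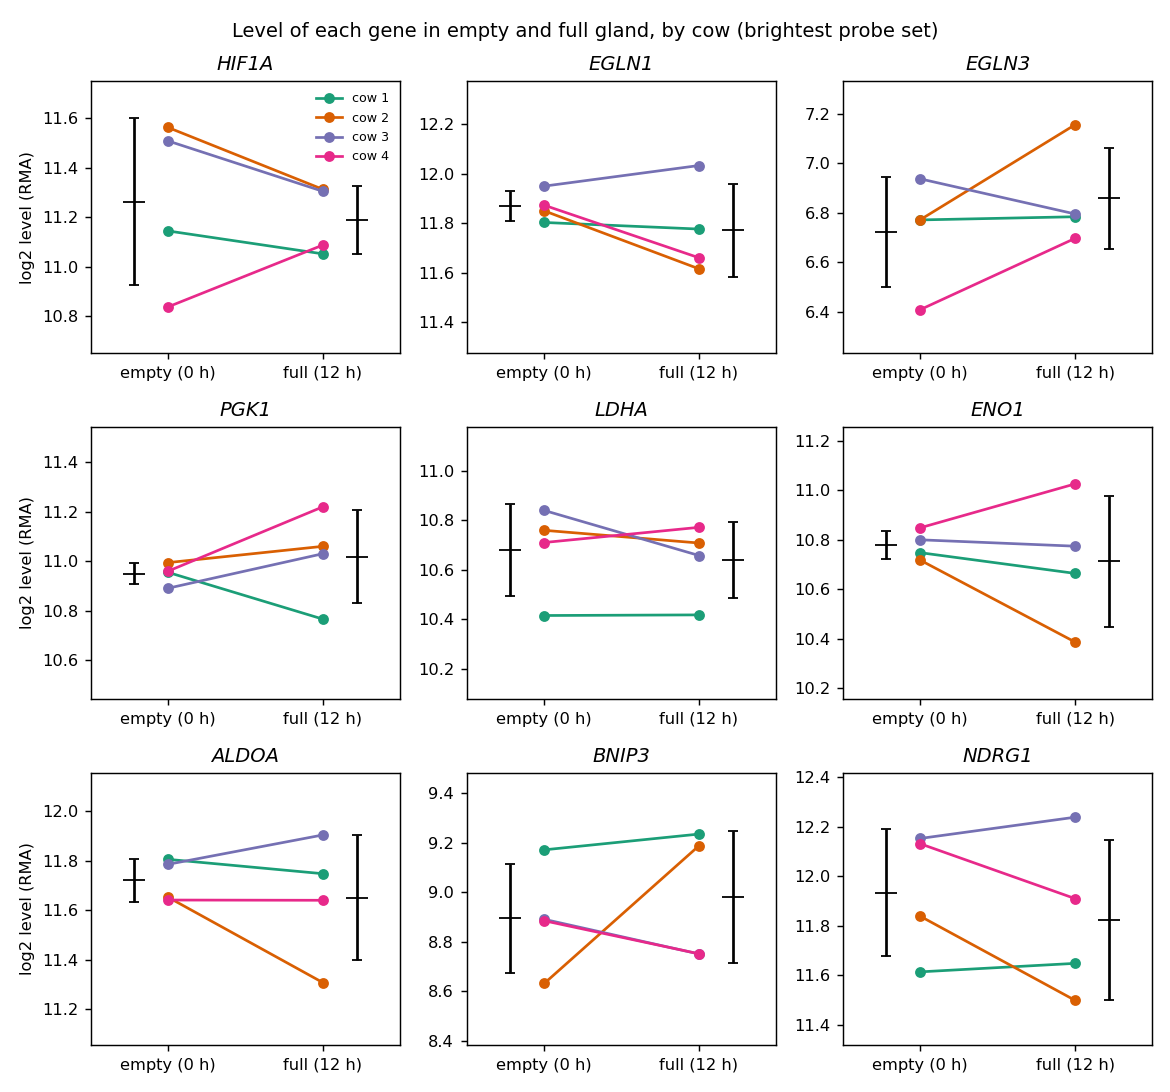
Log2 level of each of the 9 genes (brightest probe set) in empty and full gland, 1 line per cow, with the mean and SD of each state in black (n = 4); each panel has its own vertical axis, and all span the same range. The lines cross or run in different directions in every panel, and the full and empty values overlap.

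Libraries differed in how far they lay from the rest. In cows 2 and 4 the full library had a median r with the other arrays of 0.969 and 0.9753, and the lowest of the other 6 had 0.9856. The array's control probe sets for the 3' and 5' ends of a transcript set the full library of cow 2 apart, and that of cow 4 only for actin. For GAPDH the 3' minus 5' gap was 3.31 log2 in the full library of cow 2 and 1.53 to 2.13 in the other 7 libraries. For the elongation factor EF1A it was -0.75 in the full library of cow 2, -1.91 in that of cow 4 and -1.96 to -1.25 in the others. For actin it was 1.36 in the full library of cow 4 and -0.07 to 0.07 in the others. Both actin ends were dim in those others, at 5.91 to 6.19, where the lower quartile of an array was 5.98 to 6.03. In the full library of cow 4 they read 7.93 (3') and 6.57 (5'), so the actin gaps are not like for like. The part of these gaps in the results was not tested. Of the markers of luminal secretory epithelium, 11 of 11 were measured, and their mean log2 level was 12.38 to 12.55 in empty and 12.39 to 12.71 in full gland, so the tissue carried its defining transcripts in every sample.

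HIF1A itself was read by 1 probe set. Its log2 level in the empty gland of cows 1 to 4 was 11.14, 11.56, 11.51 and 10.84. In full gland it was 11.05, 11.31, 11.30 and 11.09 in the same order. The full values lay inside the span of the empty ones, and cow 4 was the lowest of the empty samples. Cows 1, 2 and 3 were lower in full gland and cow 4 was higher, and the mean difference was -0.07 ± 0.10 (SE as moderated by limma, 4 cows, here and below). In whole biopsies, fewer cells of a type and less RNA per cell cannot be told apart.

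EGLN1, the main prolyl hydroxylase acting on HIF subunits in oxygenated cells, had 3 probe sets. The brightest read 11.80, 11.85, 11.95 and 11.87 in the empty gland of cows 1 to 4. It read 11.78, 11.62, 12.03 and 11.66 in the full gland. The 4 empty values were close together (SD 0.06) and the full values were spread (SD 0.19), with cows 1, 2 and 4 below all empty samples (cow 1 narrowly) and cow 3 above them. A larger SD in full than in empty gland was general on these arrays. It was found in 75.2% of all genes and in 6 of the 9 genes of the set. The mean difference was -0.10 ± 0.08 (SE).

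The other EGLN1 probe sets shared the direction of cows 2 and 4 but not its size. The middle one in brightness differed by 0.07, -0.31, -0.04 and -0.50 in cows 1 to 4, with a mean of -0.20 ± 0.11 (SE) and the smallest unadjusted p of the 15, 0.131 in limma (adjusted p = 0.993). The dimmest differed by 0.11, -1.31, 0.41 and -0.41, with a mean of -0.30 ± 0.28 (SE). Its level of 9.08 in the full library of cow 2 was the one EGLN1 value far from the rest, since the other 7 libraries lay between 10.14 and 10.80. That is also the library with the widest GAPDH gap between the ends of the transcript, and a link between them was not tested. Without cows 2 and 4 the brightest EGLN1 probe set differed by 0.03.

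EGLN3, the hydroxylase that is itself a HIF target, was dim, at 6.41 to 7.16, where the median of an array lay between 7.08 and 7.24. Its level in the empty gland of cows 1 to 4 was 6.77, 6.77, 6.94 and 6.41. The full gland read 6.78, 7.16, 6.79 and 6.70. Cows 2 and 4 were higher in full gland, by 0.38 and 0.29, cow 3 was lower, and cow 1 was nearly level. The mean difference of 0.14 ± 0.11 (SE) was the highest of the 9 genes, and it was -0.06 without cows 2 and 4. The RMA table holds no detection call, so whether a signal this dim stands above background is not known.

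**Figure D2:**
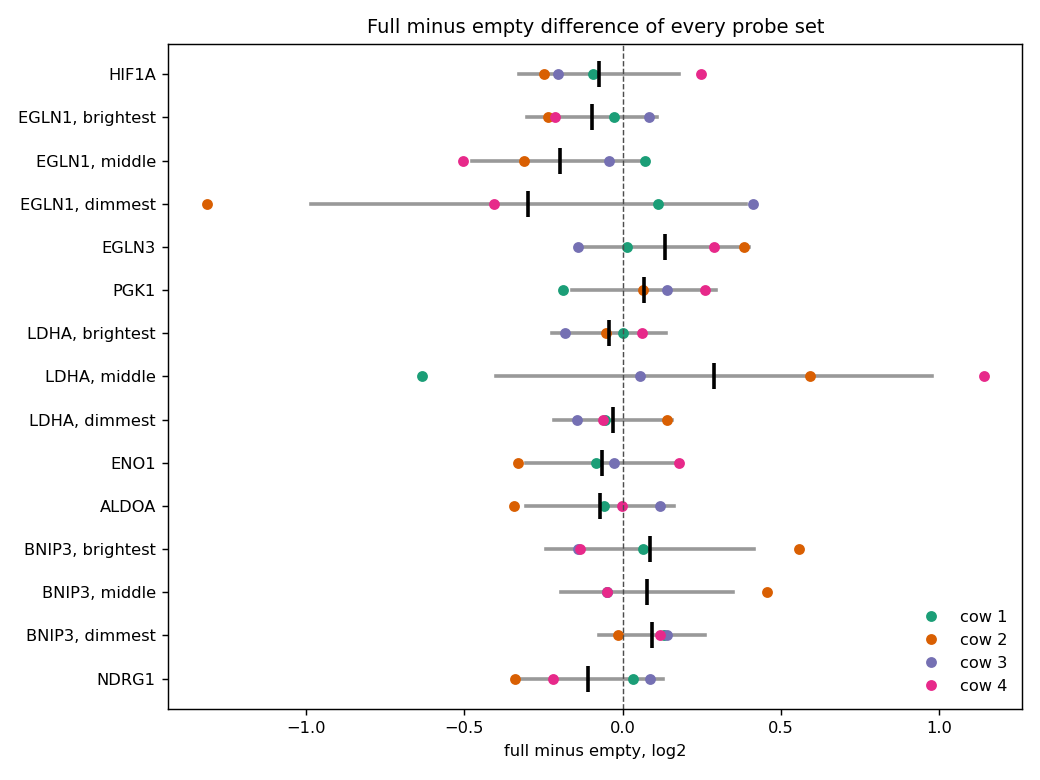
Full minus empty log2 difference for each of the 15 probe sets, with 1 point per cow, the mean of 4 cows as a black bar and limma's 95% interval as a grey line. Every interval includes 0, and the widest belong to the dimmest EGLN1 and the middle LDHA probe set.

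The glycolytic enzymes are given in pathway order. ALDOA encodes the aldolase that splits fructose bisphosphate into triose phosphates. In the empty gland of cows 1 to 4 it read 11.81, 11.65, 11.79 and 11.64. In full gland it read 11.75, 11.31, 11.90 and 11.64. The full sample of cow 2 was the lowest of the 8, at -0.34 against its own empty sample, while cow 4 was level. The mean difference was -0.07 ± 0.09 (SE), and it was 0.02 without cow 2.

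Aldolase A is also the muscle form of the enzyme. The skeletal muscle markers, 10 of 12 measured, had a mean log2 level of 6.46 to 6.62 in empty and 6.49 to 6.82 in full gland. Their highest mean level was in the full library of cow 4. The list genes with the smallest unadjusted p, the creatine kinase CKM and the muscle actin ACTA1, differed by 0.55 and 1.77 in that cow. The median difference of the list there was -0.08, so most of its genes did not share that rise. ALDOA in that cow differed by -0.00094. The part of muscle in the ALDOA values was not tested.

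PGK1 encodes phosphoglycerate kinase, the first step of glycolysis that yields ATP. Its empty values were the tightest of the 9 genes, at 10.96, 11.00, 10.89 and 10.96 in cows 1 to 4 (SD 0.04). In full gland they were 10.77, 11.06, 11.03 and 11.22 (SD 0.19). Cow 1 was below all empty samples, and cows 2, 3 and 4 were above all of them. The mean difference was 0.07 ± 0.09 (SE), with cow 4 at 0.26 and cow 1 at -0.19. Without cow 4 it was 0.0054, without cow 1 it was 0.15, and without cows 2 and 4 it was -0.02.

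ENO1 encodes enolase, which makes phosphoenolpyruvate. It read 10.75, 10.72, 10.80 and 10.85 in the empty gland of cows 1 to 4. The full gland read 10.66, 10.39, 10.77 and 11.03. The empty samples again lay close together (SD 0.06), and in full gland cow 2 was the lowest and cow 4 the highest of the 8. These 2 cows differed in opposite directions, by -0.33 and 0.18, and the mean was -0.07 ± 0.10 (SE). Without cow 2 the ENO1 difference was 0.02.

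LDHA encodes the lactate dehydrogenase subunit that favours lactate formation. The brightest of its 3 probe sets read 10.41, 10.76, 10.84 and 10.71 in the empty gland of cows 1 to 4. It read 10.42, 10.71, 10.66 and 10.77 in full gland. The difference of -0.04 ± 0.07 (SE) was the smallest of the 9 genes in size, and cow 1 was low in both states. The dimmest probe set differed by -0.03 ± 0.08 (SE).

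The LDHA probe set of middle brightness, which the annotation ties to the RefSeq mRNA itself, behaved differently. It read 9.27, 9.05, 8.54 and 9.13 in empty gland and 8.64, 9.64, 8.60 and 10.27 in full gland of cows 1 to 4. Cow 4 was thus 1.14 higher and cow 2 was 0.59 higher in full gland, cow 1 differed by -0.63 and cow 3 by 0.05. The mean of 0.29 ± 0.28 (SE) did not pass (limma adjusted p = 0.993). Over the 8 libraries this probe set correlated with the other LDHA probe sets at r = 0.19 and 0.10, and those correlated with each other at r = -0.80, so the 3 did not report one common pattern. With the mean of the 3 in place of the brightest, the LDHA difference was 0.07 instead of -0.04.

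**Figure D3:**
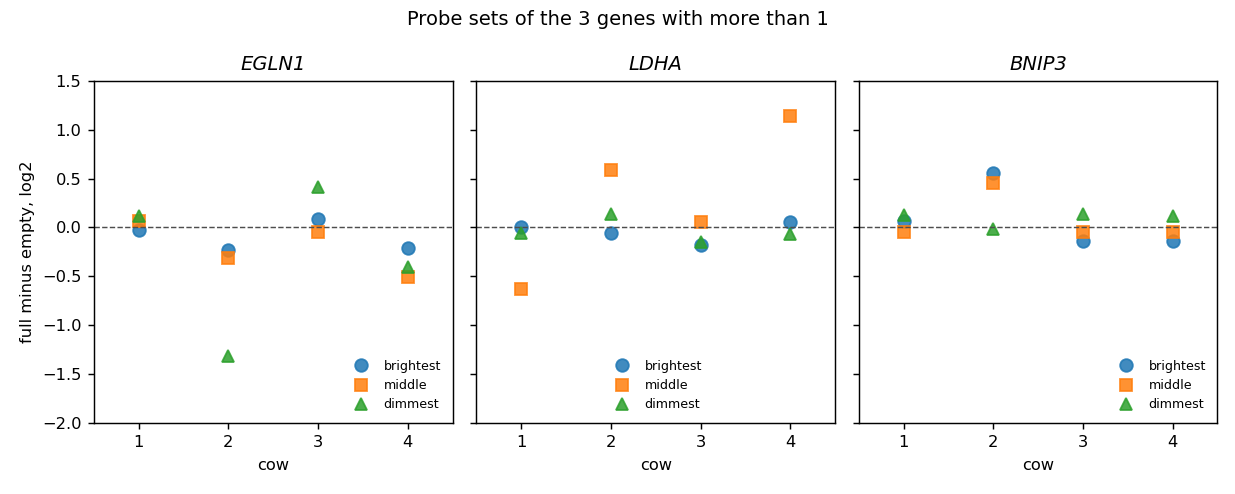
Full minus empty log2 difference in each cow for the 3 probe sets of EGLN1, LDHA and BNIP3, on 1 shared vertical axis. The EGLN1 probe sets are all below 0 in cows 2 and 4, 1 LDHA probe set departs from the other two in cows 1, 2 and 4, and 2 of 3 BNIP3 probe sets are high in cow 2.

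BNIP3 encodes a mitochondrial outer membrane protein that triggers removal of mitochondria and is a classical HIF target. The brightest of its 3 probe sets read 9.17, 8.63, 8.89 and 8.88 in the empty gland of cows 1 to 4. The full gland read 9.23, 9.19, 8.75 and 8.75. Cow 2 was the exception: its empty sample was the lowest of the 8 and its full sample was 0.56 higher, whereas the other cows differed by -0.14 to 0.06. The mean of 0.09 ± 0.13 (SE) became -0.07 without cow 2.

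The BNIP3 probe set of middle brightness followed the brightest (r = 0.89 over 8 libraries), with 0.46 in cow 2 and -0.0499 to -0.0478 in the others. The dimmest, at 6.48 to 6.99, went the other way round. It differed by 0.13, -0.02, 0.14 and 0.12 in cows 1 to 4, with a mean of 0.09 ± 0.07 (SE). The 3 means of BNIP3 were thus alike, at 0.08 to 0.09, but came from different cows.

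NDRG1, a hypoxia-responsive gene linked to cell differentiation, had the widest range of cow means (full and empty averaged) of the 9 genes, 0.56 log2. It read 11.61, 11.84, 12.15 and 12.13 in the empty gland of cows 1 to 4 and 11.65, 11.50, 12.24 and 11.91 in the full gland. Cow 3 was the highest in both states, and cows 2 and 4 were lower in full than in empty gland, with differences of -0.34 and -0.22. The mean difference was -0.11 ± 0.10 (SE), and it was 0.06 without cows 2 and 4.

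In each of the 9 genes the range of the 4 cow means, each over the full and the empty sample of that cow, was larger than the mean difference between states. A range over 4 means of 2 samples tends to exceed a difference of 2 means of 4 samples even where cows do not differ. This count therefore cannot show that cows differed more than states. That range ran from 0.23 log2 for PGK1 to 0.56 for NDRG1. In an F-test on the cow terms of the same limma model, none of the 15 probe sets passed after adjustment over all probe sets, with adjusted p from 0.252 for NDRG1 to 0.739, and 0.437% of all probe sets passed. At an unadjusted p under 0.05 there were 5 of the 15, against 14.8% of all probe sets. Each cow is 1 animal with 2 biopsies, so this test compares these 4 animals.

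The genes of the set did not move as one. Among the 36 pairs of genes, 21 correlated positively over the 8 libraries, with a median r of 0.03. These points share 4 cows and 8 libraries and are a description. EGLN1 with NDRG1 and EGLN1 with ALDOA were the most alike, both at r = 0.78, and EGLN3 with ENO1 the least, at r = -0.70. The mean of the 9 genes, each centred on its own mean, stayed between -0.07 and 0.11 log2 in every library. Outside the set, the genes with the pattern most like that mean were GLO1, SULT1B1, LOC100847724, PTPRH and MAPKAPK5, with r of 0.94 to 0.957 over 8 libraries and 9146 genes compared. They are the highest of many correlations over few libraries, so values of this size can arise by chance. Shared control was not tested.

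By cow, the set's median difference was -0.03, -0.23, -0.03 and 0.06 in cows 1 to 4, and -0.07 for the mean of the cows. Over all genes it was -0.05, 0.03, -0.02, 0.02 and -0.0036. The median size of the difference regardless of sign was 0.06, 0.33, 0.14 and 0.21 in the set and 0.11, 0.21, 0.10 and 0.17 over all genes. The set thus varied most in cow 2, the cow whose 2 libraries were the least alike. Markers of some other cells had high medians in cows 2 and 4. Their median differences were 0.17 and 0.61 for fibroblasts (9 of 10 measured) and 0.42 and 0.77 for myeloid cells (9 of 12 measured). In cows 1 and 3 they were -0.39 and -0.09, and -0.20 and -0.08. Within the myeloid list CD14, smallest there in unadjusted p, was at -0.97 and -0.24 in cows 2 and 4. The T and natural killer, myoepithelial and B cell medians were also above 0 in both cows. The endothelial median was -0.30 and 0.16. The others were below 0 in both: adipocytes (-0.16, -0.10), skeletal muscle (-0.05, -0.08), red blood cells (-0.07, -0.09) and luminal epithelium (-0.06, -0.01). The mean log2 level of the fibroblast list was 10.62 to 11.10 in empty and 10.56 to 11.62 in full gland, and that of the myeloid list 7.76 to 7.95 and 7.66 to 8.42. Array values have no zero, so none of these markers can be called absent, and their part in the differences of the set was not tested.

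The rest of glycolysis was looked at through 19 of 24 listed enzymes. None passed in limma (smallest adjusted p = 0.993), 11 were higher and 8 lower in full gland, and the median was 0.01 log2, against -0.0036 over all genes. Without cow 4 the median was -0.10 and without cow 3 it was 0.03. Smallest in unadjusted p were ADPGK, an ADP-dependent glucokinase, at -0.19 ± 0.07 (SE), and the phosphofructokinase subunits PFKL at -0.20 ± 0.07 and PFKM at -0.19 ± 0.09. Of the 19 enzymes, 3 were lower in all 4 cows, ADPGK and PFKL among them, and 0 were higher in all 4. Of all 9155 genes, 651 were lower and 329 higher in all 4 cows. The third phosphofructokinase subunit, PFKP, named after its value was seen, had the highest difference of the list, 0.18 ± 0.22, with 0.52 and 0.84 in cows 2 and 4 and -0.39 and -0.25 in cows 1 and 3. LDHB and ALDOC, isozymes of members of the set, were also named after their values were seen. LDHB, the lactate dehydrogenase subunit that pairs with LDHA, differed by -0.14 ± 0.08, and ALDOC, the brain-type aldolase, by -0.27 ± 0.14, with -0.64 and -0.49 in cows 2 and 4.

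Glucose and lactate carriers with the PFKFB enzymes, which set the level of the phosphofructokinase activator, had a median of -0.14 over 11 of 14 listed genes. Of these 8 were lower and 3 higher in full gland, and none passed (smallest adjusted p = 0.993 in limma). SLC2A8, an intracellular glucose carrier, differed by -0.20 ± 0.10 (SE) and was lower in all 4 cows. BSG, the chaperone of lactate carriers, differed by -0.20 ± 0.11, and SLC2A1, the main glucose carrier of the lactating gland and a HIF target, by -0.24 ± 0.14. SLC2A1 was at -0.61 and -0.49 in cows 2 and 4 but at -0.03 and 0.15 in cows 1 and 3. The list's median was 0.0037 without cows 2 and 4, -0.20 without cow 1 and -0.06 without cow 4.

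The pyruvate dehydrogenase complex and its regulators, the branch at which PDK1 acts, had a median of -0.10 over 12 of 13 listed genes, 8 of them lower, and none passed (smallest adjusted p = 0.993 in limma). PDHA1, a catalytic subunit of the complex, differed by -0.18 ± 0.08 (SE) and PDHX, a structural subunit, by -0.13 ± 0.07, each lower in all 4 cows. MPC2, a subunit of the mitochondrial pyruvate carrier, differed by -0.25 ± 0.15, with -0.62 and -0.53 in cows 2 and 4. The other kinases of the complex were named after their values were seen, as relatives of PDK1. PDK2 differed by -0.11 ± 0.09, PDK3 by 0.05 ± 0.10 and PDK4 by 0.17 ± 0.14, with PDK4 at 0.61 in cow 1 alone.

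HIF subunits and regulators other than the set had a median of -0.03 over 11 of 18 listed genes, with 7 lower, 4 higher and none passing (smallest adjusted p = 0.993 in limma). The coactivator CREBBP differed by 0.19 ± 0.12 (SE), the ubiquitin ligase SIAH2, which degrades prolyl hydroxylases, by -0.10 ± 0.07, and the membrane-bound prolyl hydroxylase P4HTM by 0.11 ± 0.08. EPAS1, which encodes the HIF-2 alpha subunit, and EGLN2, the third EGLN hydroxylase, were named after their values were seen and differed by -0.09 ± 0.10 and 0.02 ± 0.09.

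**Figure D4:**
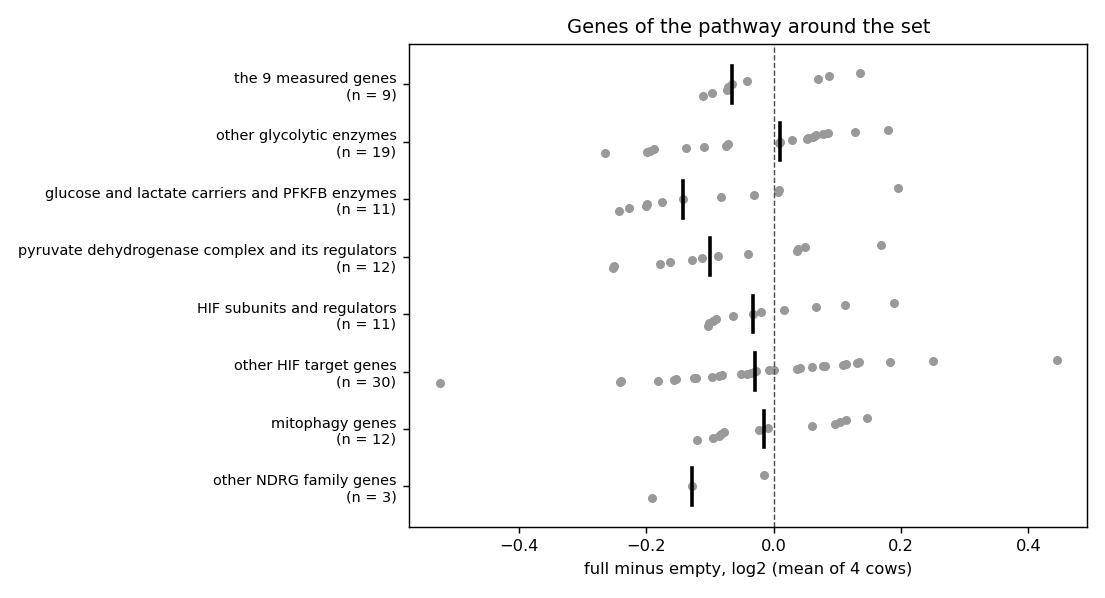
Full minus empty log2 difference (mean of 4 cows) of each measured gene in the set and in 7 lists of related genes, with the median of each list as a black bar. The medians lie between -0.14 and 0.01, and each list but the NDRG relatives has genes on both sides of 0.

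Other HIF target genes, 30 of 40 listed, had a median of -0.03 with 17 lower and 13 higher, and none passed (smallest adjusted p = 0.993 in limma). RORA, a nuclear receptor that is also part of the clock, differed by -0.52 ± 0.17 (SE) and the lipoprotein receptor VLDLR by -0.24 ± 0.09, each lower in all 4 cows. In this list 4 genes were lower and 2 were higher in all 4 cows. DDIT4, an inhibitor of mTOR complex 1, differed by -0.24 ± 0.11 and was lower in 3 cows. The span of the list ran up to 0.44 ± 0.23 for EDN1, the vasoconstrictor endothelin, named after its value was seen. EDN1 was at 0.85 and 1.07 in cows 2 and 4 and at 0.02 and -0.16 in cows 1 and 3. RORA was at -1.03 and -0.75 in cows 2 and 4 and at -0.25 and -0.07 in cows 1 and 3.

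Mitophagy genes, the machinery that BNIP3 engages, had a median of -0.02 over 12 of 16 listed genes, 7 lower and 5 higher, none passing (smallest adjusted p = 0.993 in limma). Without cows 2 and 4 that median was 0.0089. The autophagy kinase ULK1 differed by 0.15 ± 0.06 (SE) and was higher in all 4 cows, while 1 other gene of the list was lower in all 4. The autophagosome protein GABARAPL2 differed by -0.12 ± 0.07, and the cargo receptor SQSTM1 by 0.11 ± 0.08. The relatives of NDRG1, 3 of 3 measured, had a median of -0.13, and none passed. NDRG4 differed by -0.19 ± 0.10, NDRG2 by -0.13 ± 0.18 and NDRG3 by -0.01 ± 0.10. NDRG2 was at 0.55 in cow 2 and between -0.53 and -0.22 in the others.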

How the data were processed

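Biopsies of lactating mammary gland from 4 cows, 1 full and 1 empty each, were measured on 8 single-colour arrays. The authors deposited log2 values that RMA produced, as the submitters' processing notes state without a version. RMA corrects the background, equalises the distributions of the arrays and summarises probes, so a shift of most genes together would be hidden. The labels' protocols state priming from an oligo(dT) primer, which makes probe sets far from the 3' end sensitive to RNA breakage. Precision is limited by the number of arrays, since arrays have no read depth.

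Of 24128 probe sets, 112 controls were left out. Of the 24016 tested, 13292 had 1 gene symbol, 86 several and 10638 none, in a platform annotation that can be old. Symbols were compared by gene number with RefSeq genes of ARS-UCD2.0, where 13263 matched and 0 differed. The files name no genome build, so no coordinates are given. A gene was read by its brightest probe set, with every probe set of the 9 genes shown.

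Full and empty gland were compared with limma 3.58.1 under R 4.3.3, two-sided, using lmFit and eBayes with state and cow as terms, 3 residual and 2.81 prior degrees of freedom, and a threshold of 0.05 on the adjusted p. Descriptions name both samples of each cow, which gives the pairing. As a check, samples of 1 cow deviated together from their group means (r = 0.457, 0.319, 0.597 and 0.525 in cows 1 to 4). A full and an empty sample of different cows had r of -0.03 or less. Deviations from a group mean cancel out within the group, which pulls r between cows down, so its sign adds no separate support. The same linear model was tried on simulated data in a separate run, which did not cover the other steps.

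Genes were named by rule: all members, and the 3 genes of each pathway list with the smallest unadjusted p. For cell type lists the rule allowed up to 2 such genes. Exceptions are marked. Members and lists were chosen with earlier results of these data known. Of the cell type lists, the B cell, T and natural killer, myoepithelial, endothelial, adipocyte and red blood cell lists had medians of 0.05, 0.13, 0.15, -0.05, -0.09 and 2.8e-05, and no gene of them passed. Alternatives covered the block, scaling, dim probe sets, the prior, each cow left out, cows 2 and 4 left out, array weights and averaging over the probe sets of a gene. Figures were drawn with matplotlib 3.10.9.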

Additional observations from a re-analysis of the deposited data

Results flagged for a closer look

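Of 45 sets of 4 values tested for a single value far from the other 3 (levels in full gland, levels in empty gland and differences, for each of the 15 probe sets), 2 stood out, where chance gives about 1 in 20. The count is thus near that share, and the sets overlap, since the differences are taken from the levels. Both were differences of BNIP3 in cow 2. The probe set of middle brightness differed by 0.46 log2 in cow 2, against -0.0499 to -0.0478 in the other cows. The dimmest differed by -0.016 in cow 2, against 0.12 to 0.14 in the others. The departures of cow 2 from the other cows thus had opposite directions in these probe sets of 1 gene. The brightest BNIP3 probe set, at 0.56 in cow 2, was not among the 2.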

How the results depend on the processing

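No probe set of the 9 genes, and no other probe set, passed an adjusted p of 0.05 between full and empty gland under any alternative run, and the smallest adjusted p of the 15 was 0.537, without cows 2 and 4. With no replicate block (cow left out of the model) 0 probe sets passed as well. The block changed no call. Of 116 values of the 9 genes under alternatives, 103 kept their direction and 13 did not, and the cause was not tested. Leaving out each cow in turn, the difference ran from -0.15 to 0.023 for ENO1, from -0.13 to 0.020 for ALDOA, from -0.070 to 0.16 for BNIP3 and from -0.077 to 0.0042 for LDHA. Without cows 2 and 4 it was 0.028 for EGLN1, -0.064 for EGLN3, -0.025 for PGK1, 0.030 for ALDOA, -0.038 for BNIP3 and 0.060 for NDRG1. With array weights it was 0.0052 for ALDOA and -0.016 for BNIP3, and averaging over the probe sets of a gene gave 0.072 for LDHA. The carrier and PFKFB median was 0.0037 without cows 2 and 4. The median of the 9 genes stayed negative under each alternative run, from -0.07 to -0.02 with each cow left out. For the lists, leaving out each cow gave medians from -0.100 to 0.026 for other glycolytic enzymes and from -0.096 to -0.051 for the pyruvate dehydrogenase genes. The latter were at -0.037 without cows 2 and 4 and -0.035 averaged over the probe sets of a gene, and other HIF targets at -0.086 without cows 2 and 4. Among brighter probe sets only, where fewer genes were left, the adipocyte median was -0.16 and the skeletal muscle median 0.13. The number of probe sets differing between cows was 105, against 208 with median centring, 248 with an intensity trend and robust prior, 255 at a threshold of 0.1 and 13 to 131 with each cow left out. None of the 15 was among them in the fits over 3 or 4 cows at 0.05. A lone probe set with the median SE of all probe sets would have passed at about 1.72 log2, and one with a smaller SE at less.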
